A study of Mus musculus with 10 samples.

Results

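The genes described here were 38 genes of DNA damage signalling and repair, matched by gene symbol among the 48709 genes that each deposited table lists. They were listed by function: 9 act in homologous recombination, 6 in the Fanconi anemia pathway, 3 in mismatch repair and end resection, 4 in the sensing of breaks, 5 as checkpoint kinases or their activators, 5 in end joining, 4 in base excision and single-strand break repair, and 2 in lesion bypass and nucleotide excision. All 38 had at least 1 count in the series. They were measured by RNA sequencing of supporting cells, the non-sensory cells that surround the hair cells of the utricle, a balance organ of the inner ear. The utricles came from mice at postnatal day 21 (P21), were kept in culture with 10 μM TRULI, an inhibitor of the Lats kinases, in 0.1% DMSO or with 0.1% DMSO alone for 5 days, and were then dissociated at once or after 5 further days without compound. The supporting cells were sorted by the green fluorescence of a Lfng reporter, so every group carried the same reporter and every library is of a sorted bulk population.

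A proliferating cell copies its DNA once per division, and it makes many repair proteins mainly in S and G2 phases, when a sister chromatid is there to serve as a template. Homologous recombination and the Fanconi anemia pathway belong to this group and act on broken or cross-linked replication forks. End joining, base excision and single-strand break repair work throughout the cell cycle, also in resting cells. Supporting cells of the mature mammalian utricle are normally out of the cycle, and Lats kinases restrain growth by holding the coactivator Yap out of the nucleus.

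The condition of 4 of the 10 libraries differs between the sample label and the name under which the table was deposited. The counts of members called in each comparison are therefore given under both groupings. Some values of single genes are given under 1 grouping, which is then named. The 3 DMSO libraries of 5 days, the 2 TRULI withdrawal libraries and 1 TRULI library of 5 days (labelled replicate 3, named replicate 1; below, the undisputed TRULI library) have the same condition in both. The first disputed pair is labelled DMSO withdrawal 1 and 2 and named TRULI 5 days 2 and 3. The second disputed pair is labelled TRULI 5 days 1 and 2 and named DMSO withdrawal 1 and 2. Either grouping thus has 3 DMSO and 3 TRULI libraries at 5 days and 2 of each after withdrawal. Nothing in the labels says whether replicates came from separate cultures, so p-values measure the spread between these libraries only.

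The libraries held 2463872 to 6255149 counts, and the level that 3 counts stand for was between 0.47 and 1.2 counts per 1000000 (CPM) after TMM scaling. The mitochondrial ribosomal gene mt-Rnr2 took 13 to 26.4% of the counts of the 6 libraries named 5 days and 1.45 to 2.53% of the 4 named withdrawal, so the low values include the second disputed pair. The 9 supporting-cell markers summed to 7767 to 13468 CPM in the libraries named 5 days and to 3770 to 6458 CPM in those named withdrawal, and none of the 9 was at 0 in any group. Of the other cell types, hair-cell markers summed to 132 to 711 CPM and 14.9 to 751 CPM in these sets of libraries, and the 5 myogenic markers to 0 to 0.4 CPM and 14.4 to 89.4 CPM, with Myf5, Pax7 and Myog at 0 in every group. Nearly all of the myogenic sum was 1 gene, Myod1, with 34.1 and 89.1 CPM in the second disputed pair and 14.4 and 48.2 CPM after withdrawal of TRULI. Fibroblast and Schwann-cell markers summed to 18.4 to 96.3 CPM and 29.6 to 128 CPM over all libraries. Macrophage, endothelial and melanocyte markers reached 18.1, 2.95 and 14.1 CPM at most, and Adgre1, C1qa, C1qb, Cx3cr1, Tie1, Tyr and Mlana were at 0 in every group.

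In the DMSO libraries of 5 days, the members spanned a wide range. Per unit of length, in fragments per kilobase and 1000000 protein-coding counts (FPKM), the most abundant were the single-strand break scaffold Xrcc1 (81.8 ± 15.7, SD, n = 3), the Ku subunit Xrcc5 (37.5 ± 5.6) and the break-activated polymerase of poly(ADP-ribose) Parp1 (24.7 ± 3.62). Nbn (17.4 ± 8.05), Msh6 (16.2 ± 2.46), Ercc1 (14.5 ± 10.5), Xrcc6 (11.8 ± 1.6) and Atr (11.3 ± 7.05) followed, and these neighbours in the order did not differ beyond their spread. The lowest were Exo1 (0.0361 ± 0.0626), Neil3 (0.0675 ± 0.117), Polq (0.108 ± 0.187), Fanci (0.117 ± 0.104), Bard1 (0.173 ± 0.185), Rad51ap1 (0.424 ± 0.735) and Brca1 (0.495 ± 0.124), with 0 to 9 counts in each of these libraries. The median member stood at 3 FPKM and 11 of 38 members lay above 8.07 FPKM, the median of protein-coding genes with a count in these libraries.

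**Figure D1:**
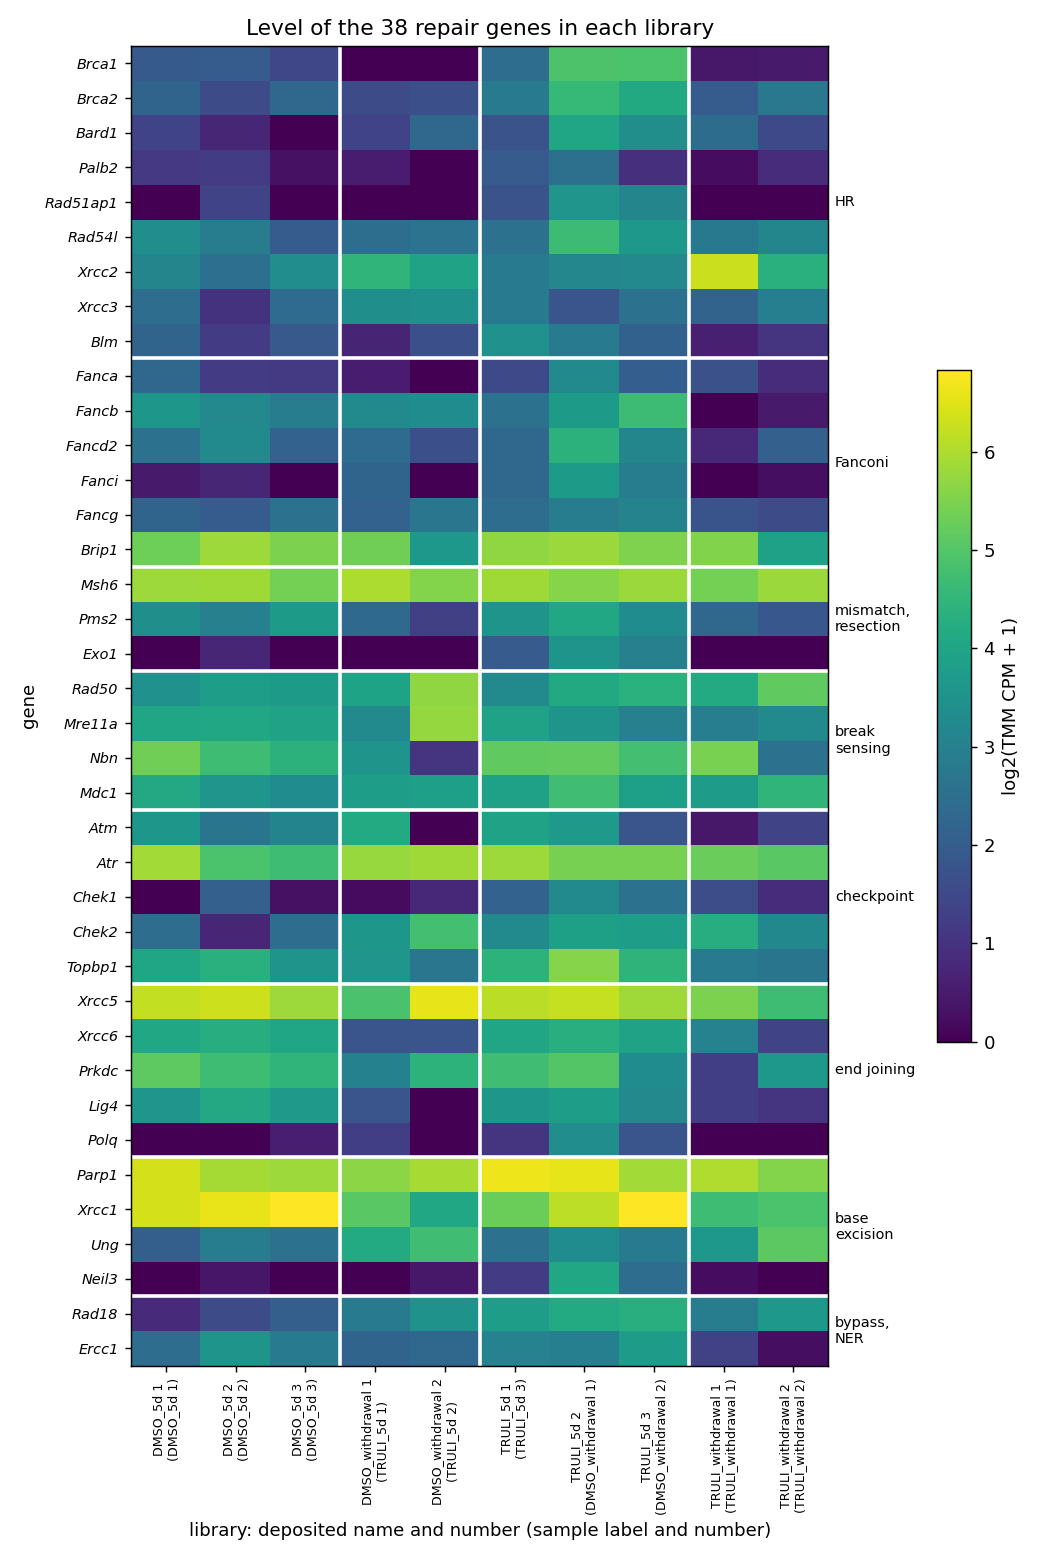
Level of each of the 38 genes (rows, by pathway) in each of the 10 libraries (columns, by deposited name and number, with the sample label in parentheses) as log2(TMM CPM + 1). Brca1, Rad51ap1, Fanci, Exo1, Polq and Neil3 are highest in the first disputed pair, whereas Msh6 varies little between columns (41.5 to 62.6 CPM).

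The first question is which repair genes differed between TRULI and DMSO after 5 days of treatment. Grouped by deposited name, 4 of the 33 members that could be tested were higher with TRULI: the ubiquitin ligase Rad18, the Fanconi subunit Fanci, the exonuclease Exo1 and the recombination factor Brca1. Over all 11529 genes tested, 2.12% were called higher (244 genes), with called meaning an edgeR adjusted p under 0.05. No member was called lower, against 134 of all genes. Grouped by sample label, 0 of 27 tested members were called in either direction by edgeR, and 0.00903% of 11071 genes were (1 gene). Of those 27 members, 4 had an unadjusted p under 0.05 (Rad18, Chek2, Ung and Xrcc1), beside 1515 of the 11071 genes. DESeq2 called 1 of the members, Xrcc1, which was lower, beside 0.542% of all genes called lower. The median log2 fold change of the tested members was 0.49 by name, beside 0.03 over all genes tested, and 0.11 by label, beside 0.05. A gene that passes the filter on low counts only through the group in which it is high has to differ. These counts and medians therefore describe the members that passed and support nothing, and the same holds for the other comparisons and gene lists below. Without that filter, over all 38 members, the medians were 0.63 by name and 0.22 by label.

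The second question is what the groups showed after 5 days without compound. By label, 4 of 37 tested members were lower in the TRULI withdrawal libraries than in the DMSO withdrawal libraries (Brca1, Fancb, Rad51ap1 and Exo1), and 1.06% of 12242 genes were called lower (130 genes); no member was called higher, against 123 of all genes. The median log2 fold change was -1.86, beside 0.02 over all genes. Without the filter on low counts it was -1.85 over all 38 members. As at 5 days, a member that passed the filter only through the DMSO withdrawal libraries had to come out lower, so these counts and medians support nothing. By name, 0 of 26 tested members and 0% of 11568 genes were called by edgeR. At an unadjusted p under 0.05, 1 member (Fancb) passed, beside 532 of the 11568 genes, and DESeq2 called none of the members. The median by name was -0.06, beside 0.01. The TRULI libraries of this contrast are the same in both groupings. The DMSO libraries are the first disputed pair by label and the second by name. By label, the DMSO and TRULI withdrawal libraries also differed in mt-Rnr2 (13 to 23.7% against 1.45 to 2.5%), in the sum of supporting-cell markers (9407 to 9961 against 4910 to 5294 CPM) and in Myod1 (0 against 14.4 to 48.2 CPM). No other myogenic marker had a count in these libraries. Of the supporting-cell markers, Slc1a3 stood at 3589 and 3835 against 534 and 771 CPM. Otog (3092 and 3475 against 3436 and 2789 CPM) and Gjb6 overlapped, and the others were lower with TRULI. The part of these differences in the members' change was not tested.

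**Figure D2:**
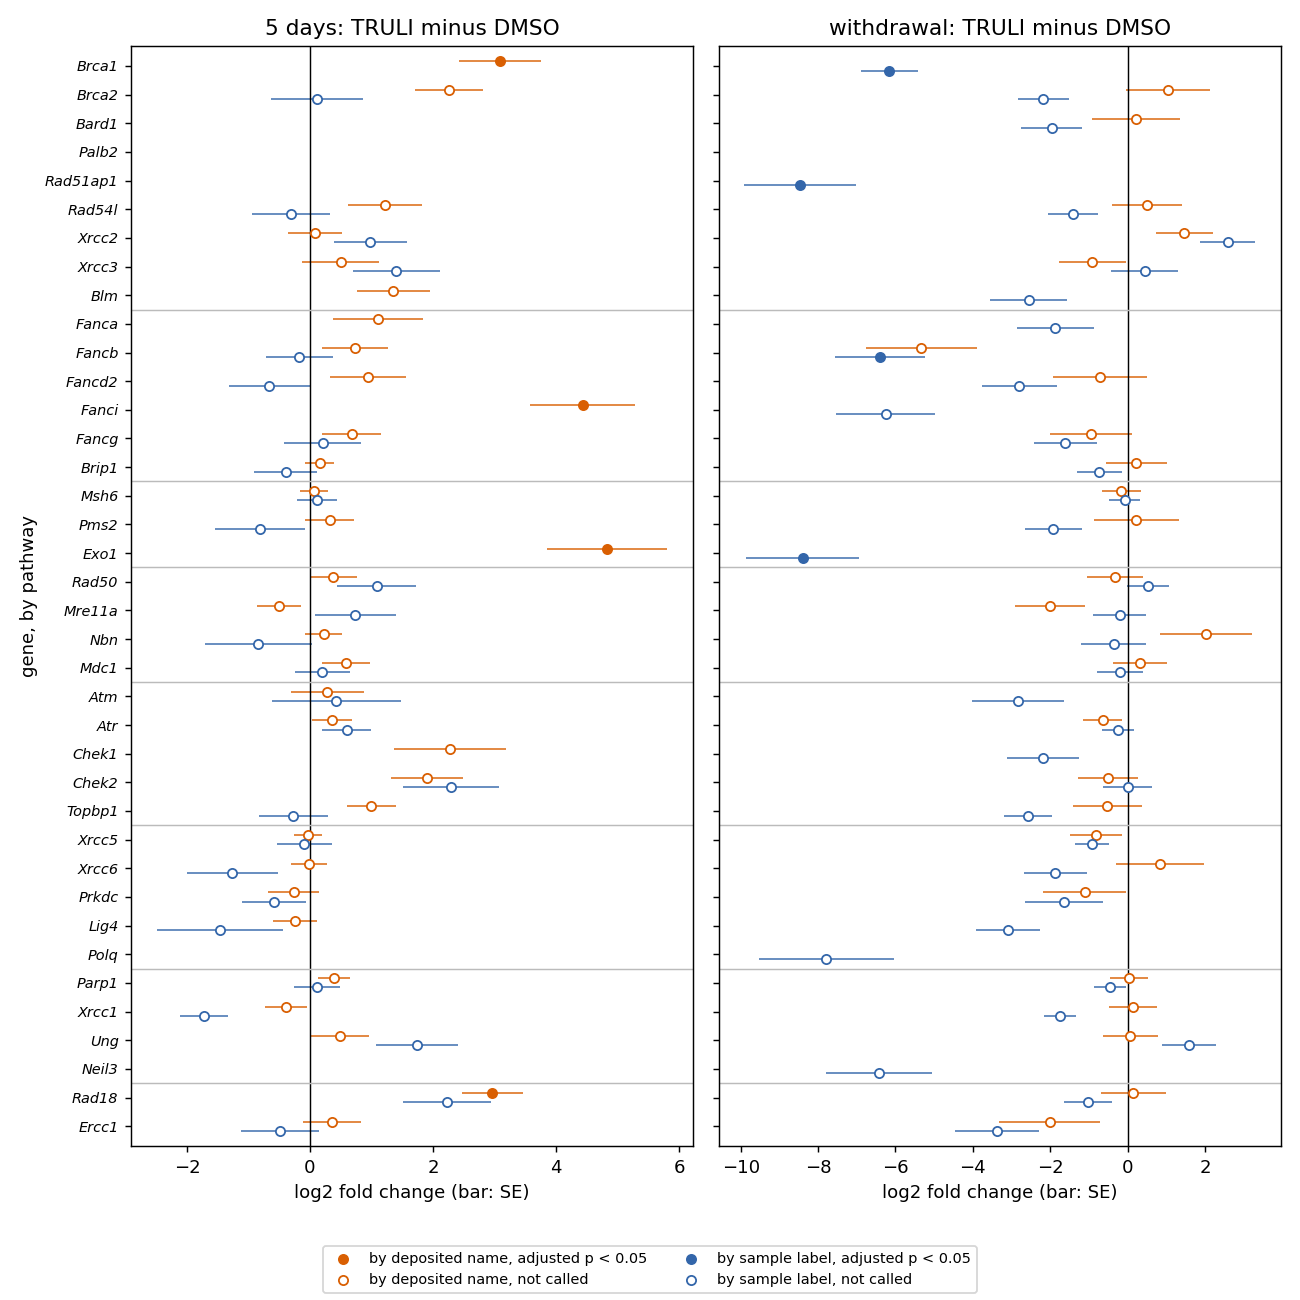
Log2 fold change of TRULI against DMSO (horizontal axis, bars are SE) of each tested gene at 5 days (left, 3 against 3 libraries) and after withdrawal (right, 2 against 2), by deposited name (orange) and by sample label (blue); filled points have an edgeR adjusted p under 0.05. The filled points are Brca1, Fanci, Exo1 and Rad18 on the left, by name, and Brca1, Rad51ap1, Fancb and Exo1 on the right, by label.

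To show what lies in front of the genes that were called, the RefSeq promoters matched to members called at 5 days by name (Rad18, Fanci and Brca1) are printed, with those of Brca2 and Chek2, the members next in order of adjusted p at 5 days by name. Each is 280 bases on GRCm38.p6, from 250 bases before the RefSeq start to the first 30 bases after it, 5′ to 3′ on the gene's strand. Capitals mark matches on either strand to the E2F letters (TTTCCCGC, TTTGGCGC, TTTCGCGC or TTTGCCGC), to the CHR letters (TTTGAA) or to CCAAT; none of the printed matches overlaps another.
Rad18, chr6:112696641-112696920, minus strand: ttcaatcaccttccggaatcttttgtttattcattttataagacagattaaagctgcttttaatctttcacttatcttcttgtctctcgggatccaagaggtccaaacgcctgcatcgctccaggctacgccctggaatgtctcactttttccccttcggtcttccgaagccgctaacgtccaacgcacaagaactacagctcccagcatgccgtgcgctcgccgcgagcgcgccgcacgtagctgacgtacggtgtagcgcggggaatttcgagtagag
Fanci, chr7:79392088-79392367, plus strand: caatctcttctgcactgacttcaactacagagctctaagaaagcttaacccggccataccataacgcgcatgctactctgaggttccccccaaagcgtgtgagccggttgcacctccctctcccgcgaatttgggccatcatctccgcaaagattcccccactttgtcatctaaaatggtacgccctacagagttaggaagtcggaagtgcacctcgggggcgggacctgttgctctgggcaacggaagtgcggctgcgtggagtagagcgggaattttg
Brca1, chr11:101551926-101552205, minus strand: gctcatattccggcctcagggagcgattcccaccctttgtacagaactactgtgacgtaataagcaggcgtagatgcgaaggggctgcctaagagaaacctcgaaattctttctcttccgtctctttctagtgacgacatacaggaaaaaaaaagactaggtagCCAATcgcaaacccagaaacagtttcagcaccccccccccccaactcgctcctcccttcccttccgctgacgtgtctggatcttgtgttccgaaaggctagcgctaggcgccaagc
Brca2, chr5:150522371-150522650, plus strand: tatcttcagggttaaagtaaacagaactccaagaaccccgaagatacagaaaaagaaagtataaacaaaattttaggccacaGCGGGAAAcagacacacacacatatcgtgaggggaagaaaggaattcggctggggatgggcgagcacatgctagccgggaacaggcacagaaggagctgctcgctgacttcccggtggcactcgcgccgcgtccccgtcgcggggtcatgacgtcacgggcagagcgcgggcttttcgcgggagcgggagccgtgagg
Chek2, chr5:110839733-110840012, plus strand: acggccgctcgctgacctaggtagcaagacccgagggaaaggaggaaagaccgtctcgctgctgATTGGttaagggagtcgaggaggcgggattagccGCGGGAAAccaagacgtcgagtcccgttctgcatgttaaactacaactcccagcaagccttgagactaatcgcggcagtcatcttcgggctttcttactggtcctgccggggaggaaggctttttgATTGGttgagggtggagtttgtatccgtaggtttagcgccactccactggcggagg

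Of these 5 promoters, the Rad18 and Fanci windows hold none of the letters, and the Brca1 window holds 1 CCAAT match that begins 86 bases before the start. The Brca2 window holds 1 E2F match (168 bases before the start), and the Chek2 window holds 1 E2F match (152 bases before) and 2 CCAAT matches (186 and 26 bases before). Among the 32 members with a matched promoter, 8 (25%) held an E2F match, beside 2.75% of 16429 protein-coding promoters of the same length. They were Brca2, Bard1, Fancg, Msh6, Mdc1, Chek2, Topbp1 and Xrcc6. CCAAT was found in 17 of 32 (53.1%), beside 37.8%, and the CHR letters in 2 of 32, Bard1 and Polq (6.25%), beside 15.0%. Of the members called higher at 5 days or lower after withdrawal of TRULI by name, 9 had a matched promoter and 1 of them, Topbp1, held an E2F match; of the 23 others, 7 did. A match describes the letters in the window and is no evidence of binding, and a window without one says nothing of the factor.

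Among the recombination genes, Brca1 (GRCm38 chr11:101488764-101551955, minus strand), which acts at broken ends together with Bard1, stood at 2.8, 2.96 and 1.74 CPM in the DMSO libraries of 5 days, at 4.46 CPM in the undisputed TRULI library, at 29.1 and 28.7 CPM in the first disputed pair, at 0 and 0 CPM in the second and at 0.348 and 0.407 CPM in the TRULI withdrawal libraries. The first disputed pair was therefore above every other library by a wide margin, and the undisputed TRULI library was above the DMSO libraries by a narrow one. By name, Brca1 rose at 5 days with a log2 fold change of 3.09 (SE 0.67, edgeR adjusted p = 0.0342). By label it passed no filter at 5 days, and it was lower after withdrawal by -6.16 (SE 0.74, edgeR adjusted p = 0.0312).

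Rad51ap1 (GRCm38 chr6:126923050-126939587, minus strand) encodes an accessory factor of homologous recombination. It had 0, 1.64 and 0 CPM in the DMSO libraries of 5 days, 2.36 CPM in the undisputed TRULI library, 10.9 and 7.62 CPM in the first disputed pair and 0 CPM in the other 4 libraries. By label the TRULI withdrawal libraries were at least 16.4-fold lower than the DMSO withdrawal libraries, computed against 3 counts per library (edgeR adjusted p = 0.0459). It was too low for the tests at 5 days in either grouping.

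Brca2, which acts at resected DNA ends in recombination, had the highest FPKM of the recombination genes in the DMSO libraries of 5 days (3.18 ± 0.857, SD, n = 3). It held 3.6, 1.97 and 3.97 CPM there, 6.04 CPM in the undisputed TRULI library, 22.9 and 16.6 CPM in the first disputed pair, 2.03 and 2.16 CPM in the second, and 2.95 and 5.7 CPM in the TRULI withdrawal libraries. By name all 3 TRULI libraries lay above all 3 DMSO libraries at 5 days, as for 10.6% of all genes tested. The log2 fold change was 2.26 (SE 0.56, edgeR adjusted p = 0.0541, and 0.0234 with the replicate number as a block). By label the log2 fold change was 0.12 (SE 0.74).

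Bard1, the partner of Brca1, stood at 1.6, 0.658 and 0 CPM, at 2.36 CPM, at 15.2 and 9.41 CPM, at 1.57 and 3.95 CPM and at 4.34 and 1.83 CPM in the same order of libraries. Xrcc2, another recombination factor, ran the other way: 7.59, 4.6 and 9.17 CPM with DMSO at 5 days, 6.04 CPM in the undisputed TRULI library, 7.95 and 8.29 CPM in the first disputed pair, 21.3 and 14.4 CPM in the second, and 77.5 and 19.3 CPM after withdrawal of TRULI. Its value in 1 withdrawal library, 77.5 CPM, is far from the other 9. Of the remaining recombination genes, Rad54l peaked at 24.6 CPM in a library of the first disputed pair and Blm, a helicase, at 9.98 CPM in the undisputed TRULI library, whereas Xrcc3 stayed between 0.986 and 9.7 CPM and Palb2, the link between Brca1 and Brca2, between 0 and 4.72 CPM; none of these 4 was called in a comparison of TRULI with DMSO.

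**Figure D3:**
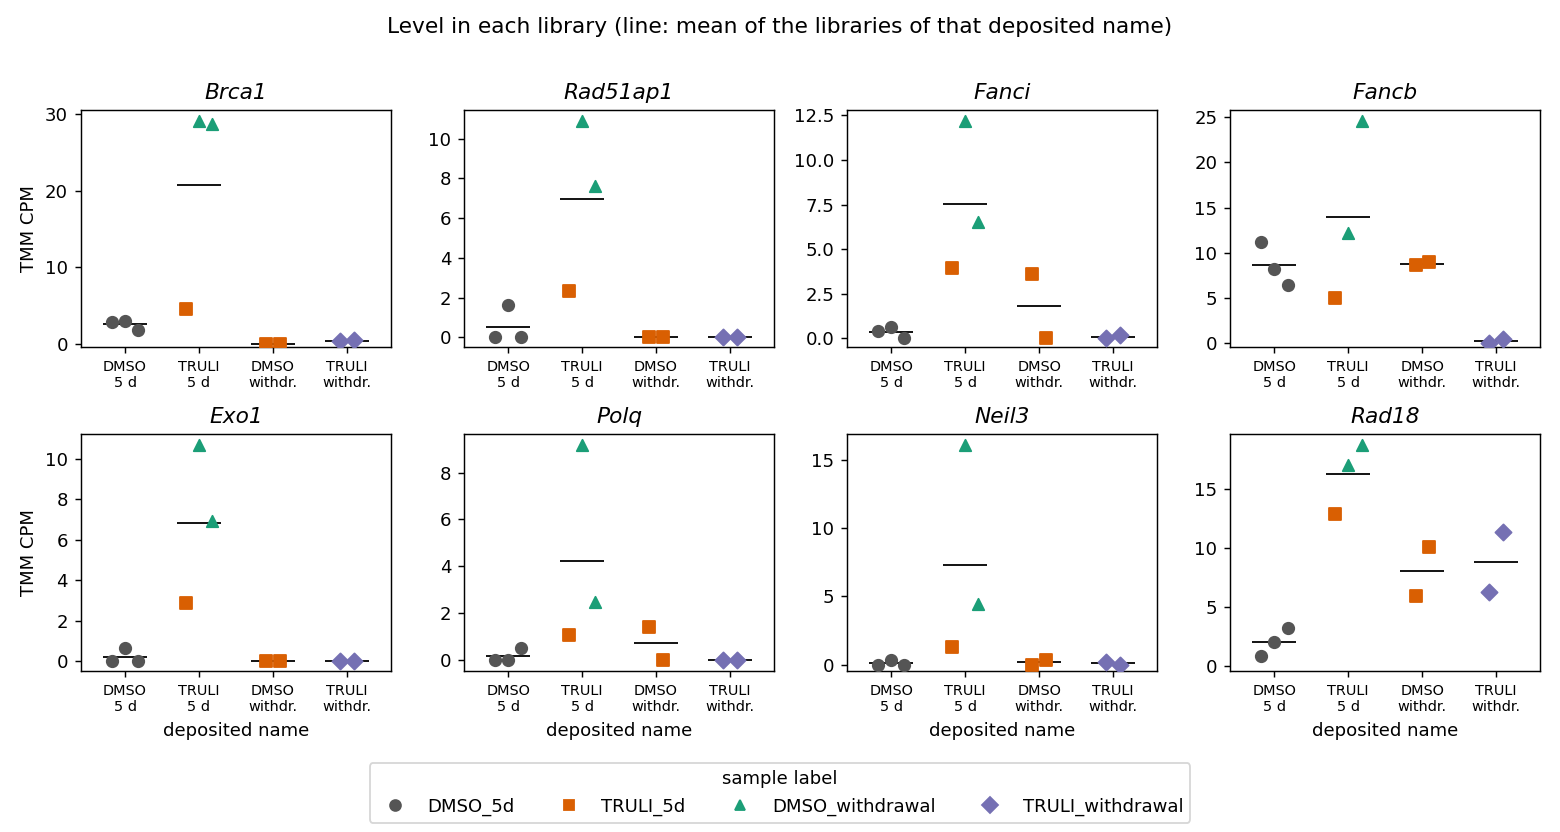
TMM CPM (vertical axes, each with its own scale) of 8 genes in each library, placed by deposited name, with colour and shape for the sample label and a line at the mean of each named group. The triangles, labelled DMSO withdrawal and named TRULI 5 days, are the highest points for all 8 genes, and for Fancb the TRULI withdrawal libraries alone are near 0.

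In the Fanconi anemia pathway, which unhooks DNA crosslinks, the members divided. Fanci (GRCm38 chr7:79391929-79450264, plus strand), a subunit of the clamp that the pathway's ligase marks with ubiquitin, had 0.4, 0.658 and 0 CPM in the DMSO libraries of 5 days, 3.94 CPM in the undisputed TRULI library, 12.2 and 6.5 CPM in the first disputed pair, 3.6 and 0 CPM in the second, and 0 and 0.203 CPM in the TRULI withdrawal libraries. By name it was called higher at 5 days (log2 fold change 4.44, SE 0.86, edgeR adjusted p = 0.0209). The DMSO libraries held 3 counts of it in all against 93, a ratio of 24.1 with a counting interval (95%) of 8.01 to 119. After withdrawal by label the difference missed the threshold (edgeR adjusted p = 0.0532). Its exons overlap those of Polg on the other strand, as those of 9 members overlap another protein-coding gene, and reads of such pairs may be shared.

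Fancb (GRCm38 chrX:164980592-164997272, plus strand), a subunit of the ubiquitin ligase complex itself, did not share this pattern. It stood at 11.2, 8.22 and 6.45 CPM with DMSO at 5 days, at 4.99 CPM in the undisputed TRULI library, at 12.2 and 24.6 CPM in the first disputed pair, at 8.61 and 8.98 CPM in the second, and at 0 and 0.407 CPM after withdrawal of TRULI. Of the 10 libraries, 8 thus lay between 4.99 and 24.6 CPM, and the TRULI withdrawal libraries alone had nearly none. They held 2 counts in all, and the DMSO withdrawal libraries held 99.9 times as much by label (counting interval 27.2 to 832) and 46.5 times as much by name (12.5 to 391). The direction was the same under both groupings, with a log2 fold change of -6.41 by label (SE 1.17, edgeR adjusted p = 0.0455) and of -5.33 by name (SE 1.44, unadjusted p = 0.00474, edgeR adjusted p = 0.923). Counting intervals cover counting error only.

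Brip1, the helicase with the highest FPKM of the pathway, ranged from 38.8 to 55.6 CPM in 8 libraries and stood at 11.5 CPM in a library of the second disputed pair and at 14 CPM in a TRULI withdrawal library. Fancd2, the partner of Fanci in the clamp, reached 19.9 CPM in 1 library of the first disputed pair and lay between 0.695 and 8.55 CPM in the other 9. Fanca lay between 0 and 8.45 CPM and Fancg between 2.03 and 7.39 CPM, and none of these 4 was called in a comparison of TRULI with DMSO.

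Among mismatch repair and resection genes, the exonuclease and the recognition factors differed. Exo1 (GRCm38 chr1:175880581-175913489, plus strand), which chews back DNA strands in mismatch repair and at breaks, had 0, 0.658 and 0 CPM in the DMSO libraries of 5 days, 2.89 CPM in the undisputed TRULI library, 10.7 and 6.94 CPM in the first disputed pair and 0 CPM in the other 4. By name it rose at 5 days (log2 fold change 4.83, SE 0.98, edgeR adjusted p = 0.0252), with 85 counts against 2, a ratio of 33.1 (counting interval 8.89 to 278). By label it was at least 15.6-fold lower in the TRULI than in the DMSO withdrawal libraries (edgeR adjusted p = 0.0463). Msh6, which recognises base mismatches, held 56.3, 57.2 and 41.7 CPM with DMSO at 5 days, 57 CPM in the undisputed TRULI library, 47.4 and 54.9 CPM in the first disputed pair, 62.6 and 46 CPM in the second, and 41.5 and 55.1 CPM after withdrawal of TRULI. At 5 days its log2 fold change was 0.07 by name (SE 0.23) and 0.12 by label (SE 0.32). Pms2, the nicking subunit, lay between 1.44 and 15.9 CPM and was not called; part of its exons are shared with other genes on its own strand.

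The break sensors varied between single libraries more than between groups. Mre11a and Rad50 are subunits of 1 complex with Nbn. Mre11a stood at 6.6 to 15.8 CPM in 9 libraries and at 53.2 CPM in the second library of the second disputed pair. Rad50 stood at 51 CPM in that same library, at 35.2 CPM in a TRULI withdrawal library and at 8.67 to 19.5 CPM in the other 8. Nbn had its lowest value in that library, 1.08 CPM, with 10.5 CPM in its partner, 40, 25.3 and 19.8 CPM with DMSO at 5 days, 34.9 CPM in the undisputed TRULI library, 35.5 and 26.7 CPM in the first disputed pair, and 42.8 and 4.88 CPM after withdrawal of TRULI. The subunits therefore did not move together. Mdc1, the scaffold that binds marked chromatin at breaks, stayed between 8.93 and 25.6 CPM. None of the 4 was called in a comparison of TRULI with DMSO.

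Of the checkpoint genes, Atr, the kinase that answers stalled forks, had the highest FPKM. It stood at 57.9, 28.9 and 25 CPM with DMSO at 5 days, at 55.7 CPM in the undisputed TRULI library, at 42.2 and 41.9 CPM in the first disputed pair, at 54.2 and 57.1 CPM in the second, and at 37.5 and 33 CPM after withdrawal of TRULI. TRULI and DMSO overlapped at 5 days in both groupings. The TRULI withdrawal libraries, the same in both groupings, lay below the DMSO withdrawal libraries in both. So did 30.4% of all genes tested by label and 14% by name. The log2 fold change of Atr there was -0.25 by label (SE 0.40) and -0.64 by name (SE 0.50), and Atr was not called. Topbp1, the activator of Atr, held 15.6, 19.1 and 10.7 CPM, 20.5 CPM, 47.2 and 20.8 CPM, 10.8 and 5.39 CPM, and 5.91 and 5.29 CPM in the same order. By name its log2 fold change at 5 days was 1.0 (SE 0.39, edgeR adjusted p = 0.233), and by label it was -0.27 (SE 0.56). Chek1, the kinase below Atr, was near the floor with DMSO (0 to 3.29 CPM) and between 3.41 and 8.69 CPM in the 3 libraries named TRULI 5 days; the edgeR adjusted p was 0.242, and 0.0494 with the replicate number as a block (log2 fold change 2.70, SE 0.78). Chek2, the kinase below Atm, stood at 4.4, 0.658 and 4.46 CPM with DMSO at 5 days, at 8.67 CPM in the undisputed TRULI library, at 13.7 and 13 CPM in the first disputed pair, at 11.3 and 26.9 CPM in the second, and at 18.2 and 8.14 CPM after withdrawal of TRULI. The 3 DMSO libraries of 5 days were below all 7 others, and the share of all genes with this order was not computed. At 5 days its log2 fold change was 1.90 by name (SE 0.59, edgeR adjusted p = 0.126, and 0.0489 with the replicate block) and 2.30 by label (SE 0.78, edgeR adjusted p = 0.332). Atm, the kinase that answers double-strand breaks, ranged widely within groups: 17.1 and 0 CPM in the second disputed pair, 11.9 and 2.46 CPM in the first, 14.2 CPM in the undisputed TRULI library, 11.2, 5.26 and 7.44 CPM with DMSO at 5 days, and 0.348 and 1.63 CPM after withdrawal of TRULI.

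The end-joining genes differed little at 5 days by name: the 4 that were tested had log2 fold changes between -0.27 and -0.02. By label the same 4 ranged from -1.46 (Lig4, SE 1.03) to -0.09 (Xrcc5, SE 0.45), and none was called. Xrcc5, a Ku subunit that binds broken ends, stood at 72.7, 78.6 and 56.3 CPM with DMSO at 5 days, at 68.3 CPM in the undisputed TRULI library, at 74.3 and 57.1 CPM in the first disputed pair, at 28.3 and 95.5 CPM in the second, and at 43.8 and 25.2 CPM after withdrawal of TRULI. Its Ku partner Xrcc6 held 16, 18.1 and 15.4 CPM, 15.2 CPM and 18.4 and 14.3 CPM in the libraries named 5 days, and 2.5 and 2.51 CPM (second disputed pair) and 7.13 and 1.63 CPM (TRULI) in those named withdrawal. Lig4, the ligase that seals the joined ends, held 10.8, 16.4 and 11.9 CPM, 11.3 CPM and 12.9 and 8.29 CPM in the same 6 libraries named 5 days, and 2.5 and 0 CPM and 1.39 and 1.02 CPM in the 4 named withdrawal. For both genes, the 6 libraries named 5 days lay above the 4 named withdrawal. Of all genes tested by name, 26.9% in TRULI and 28.1% in DMSO were wholly lower after withdrawal. The share with this order over both treatments was not computed. Prkdc, the kinase recruited by Ku, lay between 1.39 and 34.4 CPM and was not called. Polq, the polymerase of an alternative end-joining route that leans on short homologies, was unlike the rest and had 0, 0 and 0.496 CPM with DMSO at 5 days, 1.05 CPM in the undisputed TRULI library, 9.19 and 2.46 CPM in the first disputed pair, 1.41 and 0 CPM in the second, and 0 CPM after withdrawal of TRULI. It was too low for the test at 5 days, and after withdrawal by label the edgeR adjusted p was 0.0687, with a level at least 10.3-fold lower.

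In base excision and single-strand break repair, Parp1 lay between 46.4 and 101 CPM in all libraries and was not called in any comparison. Xrcc1 held 82.7, 96.3 and 113 CPM with DMSO at 5 days, 38.1 CPM in the undisputed TRULI library, 70.3 and 111 CPM in the first disputed pair, 32.9 and 16.2 CPM in the second, and 25 and 28.9 CPM after withdrawal of TRULI. By label its 3 TRULI libraries were below its 3 DMSO libraries at 5 days, as for 10.1% of all genes tested (log2 fold change -1.72, SE 0.39, unadjusted p = 0.00172, edgeR adjusted p = 0.323). By name the groups overlapped (-0.39, SE 0.34). Ung, the glycosylase that removes uracil, stood at 3.2, 6.25 and 4.96 CPM with DMSO at 5 days, at 4.99 CPM, at 8.94 and 6.05 CPM in the first disputed pair, at 17.2 and 25.9 CPM in the second, and at 11.5 and 33.8 CPM after withdrawal of TRULI. Neil3, a glycosylase that acts on damage in single-stranded DNA, had 0, 0.329 and 0 CPM with DMSO at 5 days, 1.31 CPM in the undisputed TRULI library, 16.1 and 4.48 CPM in the first disputed pair, 0 and 0.359 CPM in the second, and 0.174 and 0 CPM after withdrawal of TRULI. The filter removed Neil3 at 5 days in both groupings. The libraries named TRULI held 90 counts and the DMSO libraries 1, a ratio of 70.1 with a counting interval of 12.3 to 2799. Of the 90 counts, 65 came from 1 library of the first disputed pair, and the interval does not cover the spread between libraries.

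Rad18 (GRCm38 chr6:112619850-112696686, minus strand), which marks the replication clamp so that a polymerase can pass a lesion, had the lowest adjusted p of the members at 5 days by name. It stood at 0.799, 1.97 and 3.22 CPM in the DMSO libraries of 5 days, at 12.9 CPM in the undisputed TRULI library, at 17.1 and 18.8 CPM in the first disputed pair, at 5.95 and 10.1 CPM in the second, and at 6.26 and 11.4 CPM after withdrawal of TRULI. The DMSO libraries of 5 days lay below all 7 others, so the TRULI libraries were higher at 5 days in both groupings. Of all genes tested, 10.6% by name and 8.18% by label were wholly higher in TRULI at 5 days. The log2 fold change was 2.96 by name (SE 0.50, edgeR adjusted p = 0.0120) and 2.23 by label (SE 0.71, edgeR adjusted p = 0.323). Ercc1, part of the nuclease of nucleotide excision repair, held 4.4, 10.5 and 5.95 CPM with DMSO at 5 days, 7.09 CPM in the undisputed TRULI library, 6.71 and 12.5 CPM in the first disputed pair, 3.6 and 3.95 CPM in the second, and 1.56 and 0.203 CPM after withdrawal of TRULI, and was not called.

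The calls at 5 days by name rest on few libraries. Replicates of the same number varied together there, and with the replicate number as a block 7 members were called, the 4 above with Brca2, Chek1 and Chek2, beside 5.68% of all genes. Leaving out DMSO 2 left none (0.321% of genes were then called higher), and leaving out DMSO 1, DMSO 3 or named TRULI 2 left Rad18 alone (1.41, 0.857 and 0.888% of genes). Without named TRULI 3, 3 remained (2.13%), and without the undisputed TRULI library there were 7 (1.96%). A fit of all 10 libraries called Rad18 alone (0.522%), and without the filter 10 members were called (3.59%), the 4 with Bard1, Brca2, Chek2, Neil3, Polq and Rad51ap1.

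By label, leaving out that library (replicate 3) gave 2 members higher at 5 days (Chek2 and Ung) and 3 lower (Lig4, Xrcc1 and Xrcc6), beside 11 and 8.24% of genes. After withdrawal by label, leaving out either DMSO library left 0 members lower, beside 0.0609 and 0.0904% of genes. Leaving out TRULI 1 or TRULI 2 gave 19 and 14 lower, beside 12.8 and 8.25% of genes, so the count over all genes rose as well. Each of these 4 fits has 1 library in an arm, which is assumed to vary like the libraries of the other arm. In a fit of all 10 libraries, 0 members and 0% of genes were called lower there.

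The interaction, the TRULI effect at 5 days minus that after withdrawal, was called for 0 of 38 members and 0% of 12841 genes by edgeR in either grouping. At an unadjusted p under 0.05, 12 members passed by label and 6 by name, beside 874 and 1217 of all genes. DESeq2 called Fancb and Fanci in both, where 0.257% of genes by label and 0.327% by name were called higher. By name, Fancb had an interaction of 6.02 on the log2 scale (SE 1.25, unadjusted p = 0.000346, edgeR adjusted p = 0.202), and by label of 6.19 (SE 1.21, unadjusted p = 0.000259, edgeR adjusted p = 0.531). Without the filter on low counts, edgeR called 7 members higher by label (0.709% of genes) and 3 by name (0.551%).

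The change over time within a treatment was compared after the values had been seen. By name, 9 of 38 members were lower in the TRULI withdrawal than in the TRULI libraries of 5 days, beside 5.86% of 12450 genes (730 genes), and 1 was higher, beside 8.10% (1009 genes). The lower ones were Brca1 (log2 fold change -5.67, SE 1.06, edgeR adjusted p = 0.0185), Fancb (-5.99, SE 1.22, edgeR adjusted p = 0.0212), Fanci (-5.92, SE 1.22, edgeR adjusted p = 0.0218), Topbp1 (-2.36, SE 0.55, edgeR adjusted p = 0.0292), Lig4 (-3.11, SE 0.67, edgeR adjusted p = 0.0240) and Neil3 (-5.91, SE 1.55, edgeR adjusted p = 0.0413), together with Exo1, Rad51ap1 and Polq, which had no count after withdrawal and were at least 12.1-fold, 12.3-fold and 7.49-fold lower (edgeR adjusted p = 0.0204, 0.0223 and 0.0453). The higher one was Xrcc2 (2.73, SE 0.58, edgeR adjusted p = 0.0235). The median member fell by 1.63 on the log2 scale, beside -0.01 over all genes. Without the filter on low counts the median was -1.62. A member that passed the filter only through the TRULI libraries of 5 days had to come out lower, so these counts and medians support nothing. By label, 0 of 32 tested members and 0% of 12288 genes were called by edgeR, and DESeq2 called none of the members. An unadjusted p under 0.05 was found for 2 members, beside 399 of the 12288 genes. Leaving out named TRULI 2 or named TRULI 3 left no member lower (0.0493 and 1.72% of genes), and leaving out the undisputed TRULI library left 4 (1.06%). The call of Xrcc2 was lost without any 1 of these 3.

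In DMSO by name, 5 members were called. Of the 9 called lower in TRULI, Brca1, Rad51ap1, Fanci, Exo1, Polq and Neil3 were too low to be tested in DMSO, so the lists of calls cannot be set against each other for them. Xrcc6 (-2.71, SE 0.53, edgeR adjusted p = 0.0142), Xrcc1 (-1.99, SE 0.39, edgeR adjusted p = 0.0142) and Lig4 (-3.15, SE 0.92, edgeR adjusted p = 0.0436) were lower after withdrawal, 3 of 27 tested members beside 8.24% of 11382 genes (938 genes). Ung (2.13, SE 0.51, edgeR adjusted p = 0.0231) and Chek2 (2.55, SE 0.75, edgeR adjusted p = 0.0436) were higher, beside 11.0% of genes (1255 genes). Lig4 was called in both treatments, and in neither with the replicate number as a block. Without DMSO 2 or DMSO 3 of the 5-day libraries none of these calls was left. Of all genes, 0.00895 and 4.25% were then higher and 0.0269 and 2.33% lower. Without DMSO 1, Xrcc1 was the call that was left, beside 1.48% of genes lower. A fit without a withdrawal library leaves 1 in that arm and is not counted here. By label the same contrast set the first disputed pair against the DMSO libraries of 5 days, and 7 of 37 members were higher, beside 1.96% of 12017 genes (236 genes): Brca1 (3.55, SE 0.43, edgeR adjusted p = 0.00149), Neil3 (6.22, SE 1.09, edgeR adjusted p = 0.0122), Rad18 (3.10, SE 0.55, edgeR adjusted p = 0.0138), Brca2 (2.62, SE 0.48, edgeR adjusted p = 0.0151), Fanci, Exo1 and Bard1. Without DMSO 2 of 5 days there were 3 (1.05% of genes), and without DMSO 1 or DMSO 3 there were 7 (1.97 and 1.75%). The comparisons over time share libraries with those of TRULI and DMSO and are not independent of them. The libraries named withdrawal differed from those named 5 days in mt-Rnr2, the sum of supporting-cell markers and Myod1, as given above, and the part of these differences in the change over time was not tested.

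**Figure D4:**
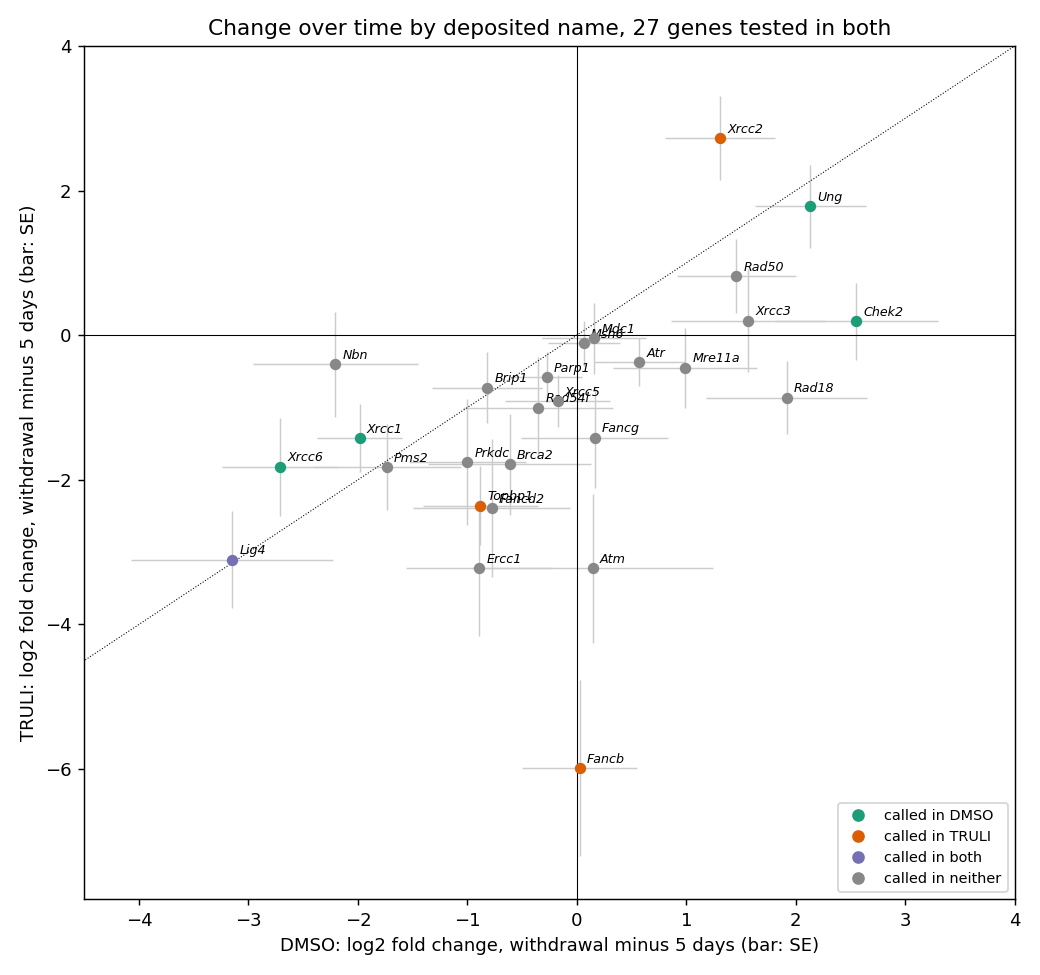
Log2 fold change from 5 days to withdrawal by deposited name, in DMSO (horizontal axis, 2 against 3 libraries) and in TRULI (vertical axis, 2 against 3 libraries), for the 27 genes tested in both, with SE bars and a dotted line of equal change. Lig4, Xrcc6 and Xrcc1 are low on both axes, whereas Fancb (0.03 in DMSO, -5.99 in TRULI) lies far below the line.

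Genes of proliferation had their highest sums in the first disputed pair. Of the recombination genes, Brca1, Brca2, Bard1, Rad51ap1 and Rad54l were higher in both libraries of this pair than in any other. Palb2 was not (4.72 and 0.896 CPM, against 2.89 CPM in the undisputed TRULI library), nor were Xrcc2, Xrcc3 and Blm. The share of all genes that were highest there was not computed. At 5 days by name, 24 of 25 genes of S phase and G2/M were tested and 17 were called higher, none lower, beside 2.12% of all genes called higher. By label, 10 were tested at 5 days, none of them of G2/M, and 0 were called by edgeR. At an unadjusted p under 0.05, 2 passed, beside 1515 of 11071 genes. After withdrawal, 12 of 25 were called lower by label, beside 1.06% of all genes. By name 0 of 12 were called, and 1 had an unadjusted p under 0.05, beside 532 of 11568 genes. The 10 G2/M genes summed to 22, 17.1 and 13.6 CPM in the DMSO libraries of 5 days, to 105 CPM in the undisputed TRULI library, to 471 and 324 CPM in the first disputed pair, to 2.03 and 2.16 CPM in the second, and to 11.5 and 3.86 CPM after withdrawal of TRULI. The 15 S-phase genes summed to 118, 142 and 95.9 CPM, 225 CPM, 662 and 463 CPM, 135 and 133 CPM, and 168 and 241 CPM in the same order. In a bulk sample, more cells with a transcript and more transcript per cell cannot be told apart, and the part of proliferation in the members' levels was not tested.

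Outside the 38 members, 99 other genes of the same pathways were taken as a wider list. By name at 5 days, 2.12% of all genes tested were called higher and 1.16% lower. Of this list, 82 were tested, and 3 were called higher and none lower. Among them were the replicative ligase Lig1 (log2 fold change 2.87, SE 0.49, edgeR adjusted p = 0.0131) and Ube2t, the conjugating enzyme of the Fanconi pathway (2.59, SE 0.61, edgeR adjusted p = 0.0449). Lig1 held 2.8, 2.96 and 2.98 CPM with DMSO at 5 days, 10.2 CPM in the undisputed TRULI library, 33.3 and 19.9 CPM in the first disputed pair, 9.55 and 6.47 CPM in the second, and 12.9 and 3.25 CPM after withdrawal of TRULI. The median log2 fold change of the 82 was 0.08 by name. By label, edgeR called 0 of 78 at 5 days, and 3 had an unadjusted p under 0.05, beside 1515 of 11071 genes. After withdrawal by label edgeR called 0 of 89, and 26 had an unadjusted p under 0.05, beside 3001 of 12242 genes. By name edgeR called 0 of 84 after withdrawal, and 7 had an unadjusted p under 0.05, beside 532 of 11568 genes.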

How the data were processed

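The 38 members and all gene lists were chosen with earlier results of these data known. Per the labels and the methods, supporting cells were sorted from cultured utricles, RNA was extracted with a Zymo micro kit, and reads were mapped with STAR to GRCm38 (mm10). The labels and the methods name different library kits. The authors deposited 1 table per library with an expected count and an effective length for each of 48709 genes, without normalization; the counting program is not given in the sources used here. Expected counts were rounded to whole numbers. Symbols and positions came from GENCODE vM21, which matched 48349 gene identifiers (21695 protein-coding).

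Each comparison was fitted with its own groups in edgeR 4.0.16 (R 4.3.3): filterByExpr, TMM scaling, the quasi-likelihood test and Benjamini-Hochberg adjustment over all genes tested, with an adjusted p under 0.05 called. SE is the size of the log2 fold change divided by the root of F. The interaction used all 10 libraries. DESeq2 1.42.0 and other settings were alternatives, as was leaving out each library. CPM of single libraries used TMM factors over all 10 libraries, and FPKM used the deposited effective lengths and the protein-coding total. A fold against a group at 0 was computed against 3 counts per library. Ratios with 1 to 3 counts in a group have exact binomial counting intervals. No library was a copy of another (lowest chi-square of a pair, divided by its degrees of freedom, 15.3).

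Same-numbered libraries by deposited name at 5 days deviated together from their group means (r = 0.353, 0.164 and 0.291 for numbers 1, 2 and 3, across genes), so the numbers were taken to pair these samples. The pairing comes from the numbers in the deposited names alone, and no label states it. It was adopted after these correlations in the same data were seen, so calls made with the block are no separate support.

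Values in each library were given for members called in any comparison, for the highest FPKM of each pathway and for the largest fold change of each pathway. The code was tested on simulated counts with known changes. Promoter sequences were from RefSeq, GRCm38.p6, and were matched by symbol for 32 of the 38 members; the pair of promoters of members that were not called was chosen by adjusted p. The values of 1 gene of the wider list are not reported here.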

Additional observations from a re-analysis of the deposited data

How the results depend on the processing

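Calls of members depended on the grouping and on single libraries, and the causes were not tested. Counts of members called are given here, with the share of all genes tested in parentheses. The share over all genes changed between settings as well. At 5 days by label, DESeq2 and no filter each gave 1 lower (0.542 and 0.495%). Leaving out a library gave 0 to 2 higher (0 to 11%) and 0 to 3 lower (0 to 8.24%). At 5 days by name, DESeq2 gave 6 higher (3.68%), no filter 10 (3.59%) and the replicate block 7 (5.68%). All 10 libraries in one fit gave 1 (0.522%), and leaving out a library 0 to 7 (0.321 to 2.13%). After withdrawal by label, DESeq2 gave 1 higher (6.94%) and 10 lower (5.05%), and no filter 1 (5.44%) and 12 (3.63%). All 10 libraries in one fit gave 0 lower (0%). A replicate block on these 2 pairs, which share only a number, gave 1 higher (5.94%) and 9 lower (4.45%). Leaving out a library gave 0 to 1 higher and 0 to 19 lower. Each of these fits has 1 library in an arm, and the shares of all genes called lower in them are given in the Results. For the interaction, DESeq2 gave 2 higher in both groupings (0.257% by label and 0.327% by name). No filter gave 7 higher by label (0.709%) and 3 by name (0.551%). For TRULI over time by name, DESeq2 gave 2 higher (12.8%) and 15 lower (11%), and no filter 2 (8.76%) and 15 (6.35%). All 10 libraries in one fit gave 2 higher (10.3%) and 13 lower (7.87%). The replicate block gave 0 higher (5.68%) and 6 lower (3.19%). Leaving out a 5-day library gave 0 higher (0.0493 to 4.29%) and 0 to 4 lower (0.0493 to 1.72%). For DMSO over time by label, DESeq2 gave 9 higher (2.9%), no filter 13 (3.13%) and the replicate block 8 (3.2%). All 10 libraries in one fit gave 0 (0.0312%), and leaving out a 5-day library 3 to 7 (1.05 to 1.97%). For DMSO over time by name, DESeq2 gave 2 higher (14.1%) and 4 lower (12.2%), and no filter 3 (9.53%) and 5 (6.49%). All 10 libraries in one fit gave 3 higher (10.8%) and 4 lower (7.48%). The replicate block gave 0 higher (5.87%) and 3 lower (3.97%). Leaving out a 5-day library gave 0 higher (0.00895 to 4.25%) and 0 to 1 lower (0.0269 to 2.33%). Signs were checked for the members called at 5 days or after withdrawal in either grouping, and for those called over time by name. None of these fold changes reversed under an alternative run in which the member was tested. Other printed fold changes were not checked in this way.

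By label at 5 days, same-numbered libraries did not deviate together (r = -0.141, 0.0534 and -0.183), and the replicate block called 0 members. The comparisons over time were added after the values were seen. Members with counts near 0 in a group give fold changes that depend on the prior count, and their size is limited by depth.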
